A study of Homo sapiens with 2 samples.

Results

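The 46 genes described here act in G2 phase and mitosis, and were read in tumour cells of OVCAR5, an established human line from an ovarian carcinoma, after growth in mice. They were named one by one, with earlier results of these data known, and all 46 were among the 36601 genes of the table. The cells came from 5 tumours in immunodeficient NSG-b2m-/- mice, were digested to single cells and kept for 6 h in culture. The labels list 15 entries: 5 without cytokine, 5 with 10 ng/ml tumour necrosis factor (TNF), and 5 with 100 ng/ml interferon gamma (IFN-gamma) and 10 ng/ml TNF. Cells of all entries carried a reporter that senses IFN-gamma, were marked with hashtag antibodies, pooled into 1 droplet library and sorted for cyan fluorescent protein (bystander tumour cells, per the labels). Only human genes were in the table, so cells of the mouse host were not measured.

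Cell division is driven by cyclin-dependent kinase 1 (CDK1), which binds cyclin A and B, starts mitosis and is switched off when the anaphase-promoting complex marks cyclin B for destruction. Aurora and Polo-like kinases build the spindle, kinetochore proteins hold chromosomes to it, and a checkpoint delays anaphase until all chromosomes are attached. Most genes of this programme are repressed in resting cells and in G1 and are transcribed late in the cycle, and many carry a short promoter element, the cell cycle genes homology region (CHR), and CCAAT boxes. TNF acts mainly through NF-kB.

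The CHR (TTTGAA or TTCGAA, on either strand) was frequent in the promoters of these genes. RefSeq promoters on GRCh38.p14, running from 250 bases before to 50 bases after the first listed transcription start, were matched for 37 of the 46 genes. A CHR match was present in 27 of them (73.0%), against 4539 of 27305 promoters of all genes (16.6%) and 2 of 20 promoters of a list of S phase genes (10.0%). CCAAT on either strand was present in 27 promoters as well (73.0%), against 35.7% of all promoters, and both elements together in 22 (59.5%) against 6.58%. An E2F element (TTTCCCGC, TTTCGCGC, TTTGCCGC or TTTGGCGC, either strand) was present in 3 of the 37 promoters (8.11%), beside 13 of 20 S phase promoters (65.0%) and 3.33% of all promoters. The 100 bases before the start are shown for 3 genes read mostly in a small set of cells rich in mitosis genes (MKI67, CCNB2, PLK1), for CKS2 and SMC4, which were also read in other cells, and for LBR, the gene with the clearest order over the inferred groups. Each is written along the strand of its gene, and capitals mark CHR matches (TTTGAA or its complement TTCAAA) and CCAAT matches (CCAAT or its complement ATTGG).
MKI67 (chr10:128126424-128126523, minus strand): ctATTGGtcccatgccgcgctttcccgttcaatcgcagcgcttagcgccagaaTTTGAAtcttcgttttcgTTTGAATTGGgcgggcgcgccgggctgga
CCNB2 (chr15:59105046-59105145, plus strand): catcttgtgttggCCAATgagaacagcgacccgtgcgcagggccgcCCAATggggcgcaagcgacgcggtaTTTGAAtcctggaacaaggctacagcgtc
PLK1 (chr16:23678789-23678888, plus strand): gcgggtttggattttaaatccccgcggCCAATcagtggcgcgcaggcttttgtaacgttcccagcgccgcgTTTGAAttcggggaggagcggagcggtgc
CKS2 (chr9:89311095-89311194, plus strand): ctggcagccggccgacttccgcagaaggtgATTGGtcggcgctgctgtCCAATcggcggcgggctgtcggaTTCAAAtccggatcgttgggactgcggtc
SMC4 (chr3:160399550-160399649, plus strand): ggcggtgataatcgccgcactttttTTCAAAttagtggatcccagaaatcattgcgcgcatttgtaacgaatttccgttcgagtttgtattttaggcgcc
LBR (chr1:225428822-225428921, minus strand): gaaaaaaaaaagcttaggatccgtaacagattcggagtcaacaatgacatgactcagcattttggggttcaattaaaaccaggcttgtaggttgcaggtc
The CHR match began 29 bases before the start in CCNB2, PLK1 and CKS2. MKI67 had matches at 47 and 29 bases before the start, and the nearer one overlapped a CCAAT match at 24. In SMC4 the match lay 75 bases before the start, and the LBR stretch held neither element. The start used is the first one listed in RefSeq. By the gene bounds of GENCODE 29 the printed stretches of PLK1, SMC4 and LBR lie inside the gene, and that of CCNB2 partly so. Several starts were listed for 7 members. Over all listed starts, 28 of the 37 genes (75.7%) had a CHR match, against 19.5% of all genes. A match is a string of letters and does not show that a factor was bound.

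Of 5269 barcodes, 3538 had at least 1000 genes and at most 20% mitochondrial counts. Of these, 3144 carried a clear pair of hashtags (the second tag had 10 counts or more and 3 or more times those of the next) and made up 15 pairs of 49 to 630 cells, with median depths of 10942 to 12405 unique molecular identifiers (UMIs) per cell. The gene and hashtag counts share the same barcodes. No source used here ties hashtags to entries. The pairs were therefore placed in inferred groups from cytokine response genes and not from labels: 5 pairs called IFN-gamma plus TNF-like, 5 called TNF-like and 5 called unstimulated-like. A list of 12 IFN-gamma response genes stood at 163.6 to 258.1 UMIs per 10000 in the first group, 4.35 to 9.79 in the second and 2.79 to 4.39 in the third, and 12 TNF response genes at 79.9 to 97.9, 55.1 to 86.5 and 6.03 to 9.5. Because such genes set the groups, this separation was built in and is no separate support for them. Everything came from 1 pooled library with no labelled replicates, so no test between the groups was made and values are descriptions. Levels are summed UMIs per 10000 UMIs of a pair with exact 95% Poisson intervals, and shares of cells carry exact (Clopper-Pearson) 95% binomial intervals. Both cover counting error only. The reads mark transcript 3' ends, so these levels do not scale with transcript length. The epithelial tumour markers were detected for 13 of 13 genes at 43.4 to 93.2 UMIs per 10000 over the pairs. T or NK cell markers summed to 14 UMIs in all paired cells with 6 of 8 at 0, B cell markers to 8 UMIs, and erythroid markers to 0. Fibroblast and endothelial markers stood at no more than 0.0519 and 0.0501 in any pair, and myeloid markers at 0.292 to 0.611.

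The summed level of the 46 genes was 12 UMIs per 10000 over all paired cells (95% interval 11.9 to 12.1) and its medians were lowest in the IFN-gamma plus TNF-like and highest in the unstimulated-like pairs, with overlap. In the IFN-gamma plus TNF-like pairs it was 9.73 (HTO2+HTO7), 9.40 (HTO3+HTO6), 4.78 (HTO3+HTO9), 7.92 (HTO4+HTO6) and 13.7 (HTO4+HTO9). In the TNF-like pairs it was 11.7 (HTO2+HTO6), 13.5 (HTO2+HTO10), 11 (HTO3+HTO5), 11.7 (HTO3+HTO8) and 11.5 (HTO4+HTO8). In the unstimulated-like pairs it was 14.6 (HTO2+HTO5), 14.0 (HTO2+HTO8), 8.90 (HTO3+HTO7), 18.1 (HTO4+HTO7) and 15.2 (HTO4+HTO10). The medians were 9.40, 11.7 and 14.6. The overlap came from small pairs. HTO4+HTO9 (64 cells) was high and HTO3+HTO7 (71 cells) was low for their groups. HTO3+HTO9 (53 cells) was the lowest of all. The highest pair stood 3.79-fold above the lowest (3.37 to 4.28). Without the 4 pairs of fewest cells (these 3 and HTO3+HTO5, 49 cells) the span was 2.29-fold, and the ranges no longer overlapped: 7.92 to 9.73, 11.5 to 13.5 and 14.0 to 18.1. Groups of fewer pairs stand apart more easily. Among all genes, 4.04% had the 3 groups apart in falling order without these pairs, against 0.929% with all 15. Values for single genes below follow the same order of pairs within each group.

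**Figure D1:**
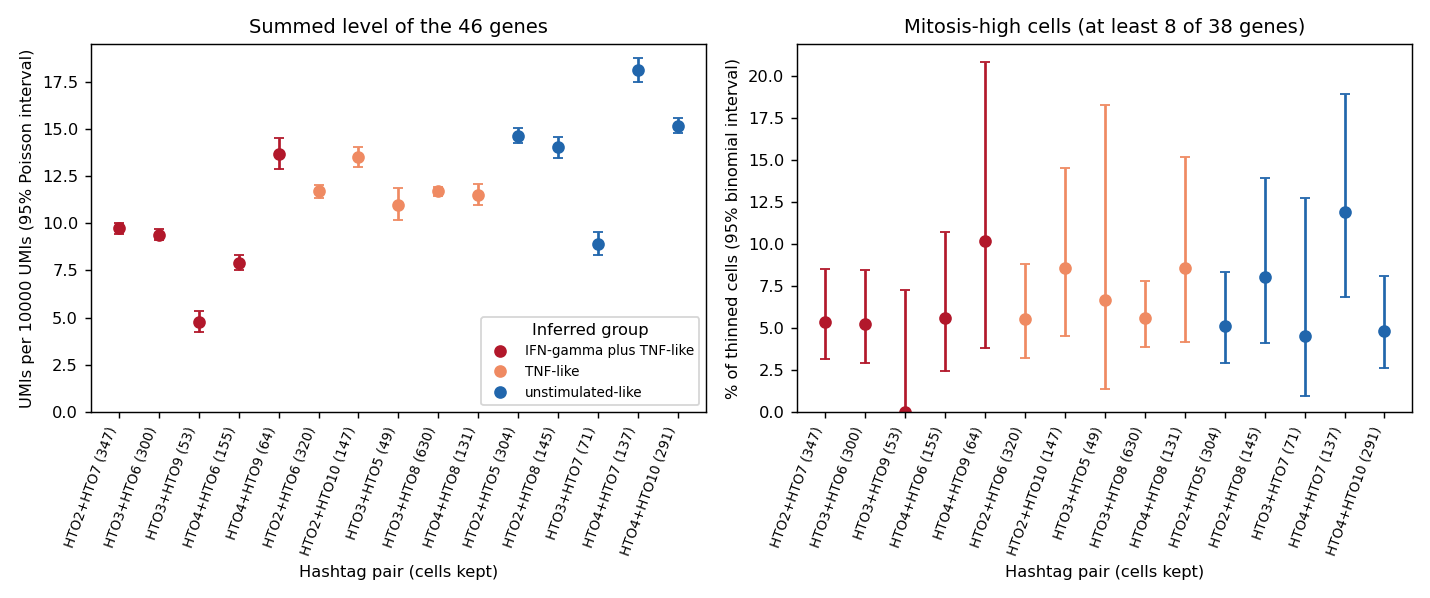
Left, summed level of the 46 genes in each of the 15 hashtag pairs (UMIs per 10000, points with 95% Poisson intervals). Right, percentage of mitosis-high cells in the same pairs after thinning to 5000 UMIs (points with 95% binomial intervals), with the number of cells kept in parentheses and colours for the inferred groups. Levels run from 4.78 to 18.1, whereas the intervals of the shares overlap widely.

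Among the cyclins, CDK1 and their partners (8 genes), CKS1B and CKS2, small proteins that bind cyclin-dependent kinases, gave most UMIs. The group summed to 1.37 to 2.50 in the IFN-gamma plus TNF-like pairs, 1.89 to 2.30 in the TNF-like pairs and 1.84 to 3.22 in the unstimulated-like pairs. CKS1B stood at 0.958, 1.08, 1.05, 1.06 and 1.38 UMIs per 10000 in the IFN-gamma plus TNF-like pairs. It stood at 1.06, 1.24, 1.37, 1.18 and 0.959 in the TNF-like pairs and at 1.28, 1.15, 1.12, 1.42 and 1.35 in the unstimulated-like pairs. This gene was nearly level: its highest pair was 1.49-fold above its lowest (1.26 to 1.75). CDK1 itself was sparse, with 0.0694, 0.0617, 0.0154, 0.0805 and 0.0267 in the IFN-gamma plus TNF-like pairs and 0.0675, 0.129, 0.0687, 0.0819 and 0.125 in the TNF-like pairs. In the unstimulated-like pairs it stood at 0.108, 0.102, 0.0992, 0.160 and 0.0826. All 5 unstimulated-like values of CDK1 lay above all 5 IFN-gamma plus TNF-like values, by a narrow gap (0.0826 against 0.0805). Cyclin B1 (CCNB1), which carries CDK1 into mitosis, stood at 0.208, 0.145, 0.0617, 0.134 and 0.214, at 0.290, 0.221, 0.120, 0.197 and 0.190, and at 0.343, 0.273, 0.0771, 0.380 and 0.363 in the 3 groups in turn. Its groups overlapped, and HTO3+HTO7 was the lowest of the unstimulated-like pairs. CCNB2 and CCNA2, a second B cyclin and cyclin A, averaged 0.0908 and 0.0564 over all cells, and CDCA3, a trigger of WEE1 degradation, 0.0647. CDC25C, the phosphatase that activates CDK1, was at 0.0154 and below the mean level of 0.05 that the comparisons over genes required.

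The mitotic kinases (6 genes) were the lowest group, summing to 0.0462 to 0.695, 0.361 to 0.684 and 0.320 to 0.855 in the 3 inferred groups. AURKA, which matures centrosomes, was the highest of them. It stood at 0.194, 0.153, 0.0308, 0.0805 and 0.240 in the IFN-gamma plus TNF-like pairs, at 0.303, 0.264, 0.155, 0.203 and 0.118 in the TNF-like pairs, and at 0.289, 0.214, 0.121, 0.386 and 0.428 in the unstimulated-like pairs. These ranges overlapped throughout. AURKB of the chromosomal passenger complex, the checkpoint kinases BUB1, BUB1B and TTK, and PLK1 lay between 0.0399 (TTK) and 0.0762 (BUB1B) over all cells. AURKB, BUB1, BUB1B and TTK had no UMI in HTO3+HTO9, and PLK1 had none in HTO3+HTO7. TTK missed the level of 0.05.

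The checkpoint and anaphase genes (4) differed in how far they spread. BUB3, a subunit of the mitotic checkpoint complex, stood at 0.780, 0.770, 0.755, 0.719 and 0.855, at 0.953, 0.819, 0.945, 0.771 and 0.893, and at 0.953, 1.01, 0.804, 0.991 and 0.908. Its span of 1.41-fold (1.12 to 1.77) was the narrowest of the 46. UBE2C, the ubiquitin-conjugating enzyme of the anaphase-promoting complex, went from 0.185 in HTO3+HTO9 to 1.06 in HTO4+HTO7 (5.74-fold, 3.21 to 11.3). PTTG1, the securin that holds separase back, went from 0.275 to 0.712, and CDC20, which activates the anaphase-promoting complex, from 0.0483 to 0.221.

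Kinetochore and chromosomal passenger genes (8) summed to 0.231 to 1.74, 0.919 to 1.22 and 0.628 to 2.02. CENPF, a kinetochore protein that accumulates in G2, stood at 0.280, 0.255, 0.0154, 0.145 and 0.588 in the IFN-gamma plus TNF-like pairs. In the TNF-like pairs it was 0.423, 0.377, 0.241, 0.339 and 0.289, and in the unstimulated-like pairs 0.576, 0.499, 0.231, 0.563 and 0.649. HTO4+HTO9 and HTO3+HTO7 again lay inside the ranges of other groups. Without the 4 smallest pairs the 3 groups of CENPF did not overlap and fell in order, as for 4.04% of all genes. BIRC5 (survivin) and CDCA8 (borealin) of the passenger complex averaged 0.238 and 0.0968. The kinetochore motor CENPE and the NDC80 complex genes NDC80, NUF2 and SPC25 averaged 0.122, 0.119, 0.0619 and 0.0454. CENPA, the histone H3 variant of centromeres, averaged 0.0616.

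Spindle and cytokinesis genes (12) summed to 0.617 to 2.99, 1.86 to 3.0 and 1.52 to 3.59. ECT2, which activates RhoA for the cleavage furrow, was the highest of them and showed no order. It stood at 0.345, 0.467, 0.231, 0.381 and 0.641, at 0.450, 0.490, 0.395, 0.511 and 0.328, and at 0.447, 0.536, 0.264, 0.427 and 0.366. TPX2, which targets AURKA to the spindle, had no UMI in HTO3+HTO9 and 0.658 in HTO4+HTO7. NUSAP1 and ANLN (anillin of the contractile ring) averaged 0.288 and 0.258, the kinesins KIF23, KIF20B, KIF11 and KIF2C 0.183, 0.144, 0.0765 and 0.0621. HMMR, TACC3, DLGAP5 and GTSE1, proteins of spindle microtubules, averaged 0.151, 0.142, 0.0916 and 0.0900.

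Chromatin and nuclear envelope genes (8) held the members with the clearest differences between the inferred groups, summing to 1.14 to 3.18, 3.28 to 4.12 and 3.07 to 5.52. MKI67, which coats mitotic chromosomes and is the usual proliferation marker, stood at 0.280, 0.25, 0.0154, 0.220 and 0.401, at 0.298, 0.522, 0.395, 0.427 and 0.381, and at 0.490, 0.493, 0.143, 0.605 and 0.419. TOP2A, the topoisomerase that untangles sister chromatids, stood at 0.375, 0.467, 0.0154, 0.257 and 0.655, at 0.515, 0.619, 0.344, 0.449 and 0.499, and at 0.780, 0.745, 0.353, 1.00 and 0.888. For both, the lowest pair was HTO3+HTO9 with 1 UMI, so that their spans of 39.2-fold (6.89 to 1565) and 65.0-fold (11.5 to 2583) were poorly bounded. SMC4, a core subunit of condensin, stood at 0.583, 0.521, 0.216, 0.434 and 0.561 in the IFN-gamma plus TNF-like pairs, at 0.728, 0.840, 0.653, 0.789 and 0.900 in the TNF-like pairs, and at 1.22, 0.987, 0.694, 1.26 and 1.04 in the unstimulated-like pairs. The first group of SMC4 lay below both others, which overlapped each other.

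LBR, the lamin B receptor of the inner nuclear membrane (chr1:225401502-225428925, minus strand, GRCh38), was the only member whose 3 groups stood fully apart over all 15 pairs. It stood at 0.282, 0.260, 0.324, 0.198 and 0.227 in the IFN-gamma plus TNF-like pairs. In the TNF-like pairs it was 0.575, 0.431, 0.429, 0.526 and 0.499, and in the unstimulated-like pairs 0.984, 0.949, 0.705, 0.842 and 0.891. The medians were 0.260, 0.499 and 0.891. Among 9361 genes with a mean level of at least 0.05, 0.929% showed the same falling order with no overlap. TMPO, another lamina-binding membrane protein, and ANP32E, which removes the histone variant H2A.Z, were lower in all IFN-gamma plus TNF-like pairs (0.0925 to 0.401 and 0.370 to 0.464) than in all TNF-like pairs (0.449 to 0.614 and 0.510 to 0.657), and overlapped with the unstimulated-like pairs. HMGB2 ran from 0.0925 to 0.516 with overlap of all groups, and CDCA2, a chromatin targeting subunit of protein phosphatase 1, averaged 0.0277 and missed the level of 0.05.

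**Figure D2:**
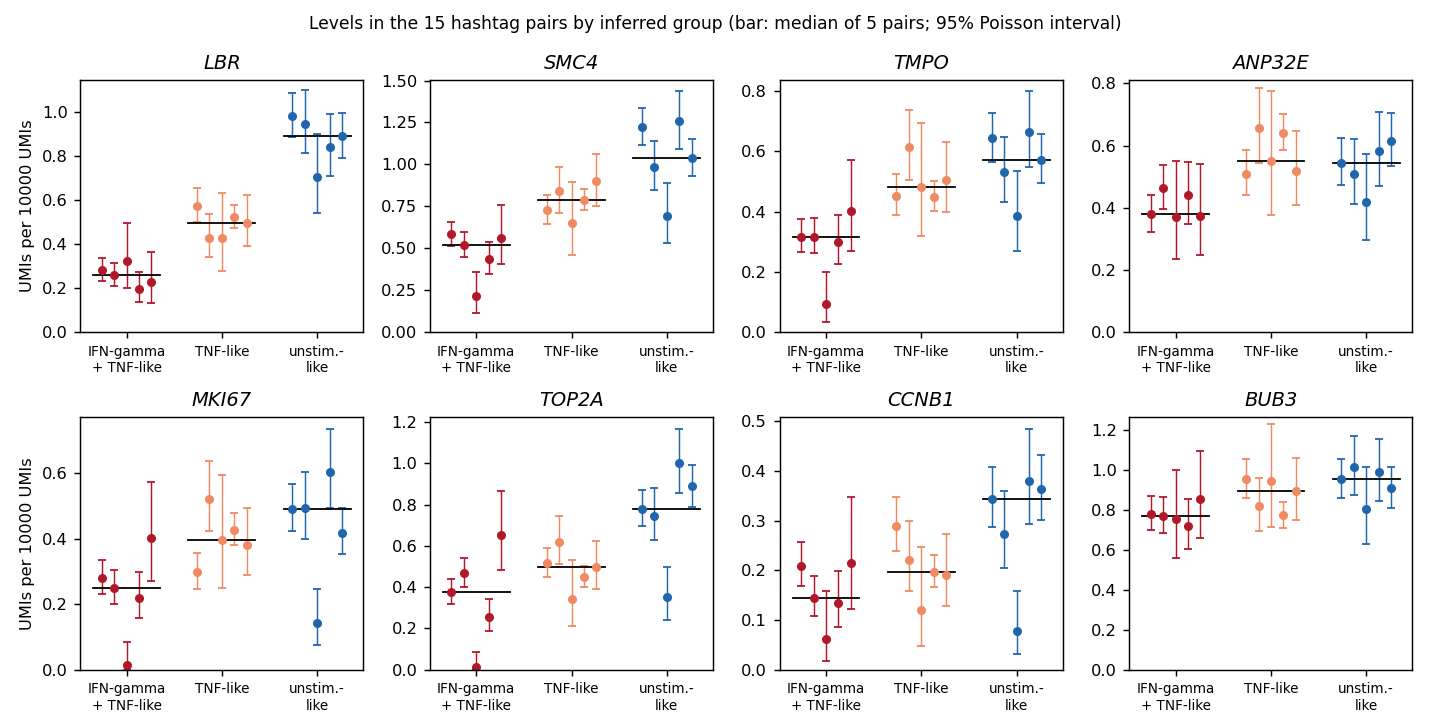
Level of 8 genes (LBR, SMC4, TMPO, ANP32E, MKI67, TOP2A, CCNB1 and BUB3) in the 15 hashtag pairs (UMIs per 10000, points with 95% Poisson intervals), coloured by inferred group, with a bar at the median of 5 pairs. The 3 groups of LBR stand apart (0.198 to 0.324, 0.429 to 0.575 and 0.705 to 0.984), and for every other gene drawn at least 2 groups share part of their range.

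Counted over the members, few had groups that did not overlap. Of the 43 that reached the mean level of 0.05, 4 (SMC4, LBR, TMPO, ANP32E) were lower in every IFN-gamma plus TNF-like pair than in every TNF-like pair, where 9.34% of all 9361 genes were. Against the unstimulated-like pairs 3 were lower (CDK1, SMC4, LBR), with 19.8% of all genes. LBR alone was lower in the TNF-like than in the unstimulated-like pairs, with 4.09% of all genes. No member was higher in any of these 3 comparisons, where 5.70%, 8.57% and 4.04% of all genes were; without the 4 pairs of fewest cells these shares were 8.19%, 11.7% and 6.90%. SMC4 and LBR were below both other groups, as were 6.84% of all genes. These counts changed with the small pairs. Without the 4 smallest, the members lower were 13 (24.6% of genes), 31 (36.8%) and 7 (9.41%), and CENPF, KIF20B, SMC4 and LBR had all groups apart in falling order (4.04%). The median difference of group medians over members was -0.79 on the log2 scale between the IFN-gamma plus TNF-like and the unstimulated-like pairs, beside -0.24 over all genes. It was -0.43 beside -0.17 between the IFN-gamma plus TNF-like and the TNF-like pairs, and -0.35 beside -0.07 between the TNF-like and the unstimulated-like pairs. By another rule, which asked for a highest pair at least 4-fold above the lowest with a lower interval bound of at least 2, 25 of the 43 members spanned the pairs, against 10.0% of all genes. HTO3+HTO9 was the lowest pair for 35 of the 46 genes, and 15 members, not all of them among the 25, met the rule without the 4 smallest pairs (8.85% of genes). TTK, CDC25C and CDCA2 are outside these counts.

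Within the library the genes were concentrated in a small number of cells. For this, each cell was thinned to 5000 UMIs (216 shallower cells were left out, 2928 remained) and the number of detected members was counted over 38 of the 46 genes. BUB3, CKS1B, CKS2, SMC4, LBR, HMGB2, TMPO and ANP32E, which are also used outside mitosis, were kept out of that count. Of the cells, 1671 (57.1%) had none of the 38 genes and 831 had 1. Only 39 cells (1.33%) had 4 to 7, and 177 cells had 8 or more, at most 30, with a median of 15. The cells with 8 or more are called mitosis-high here. They form a range of a count, not a cell type, and they made up 6.05% of cells (5.21 to 6.97). The threshold sat in a thinly filled stretch, with 21 cells at 6 or 7 genes and 15 at 8 or 9. The 10% of cells richest in the 38 genes held 83.8% of their UMIs, whereas the 10% richest in the 8 other genes held 37.2% of theirs.

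**Figure D3:**
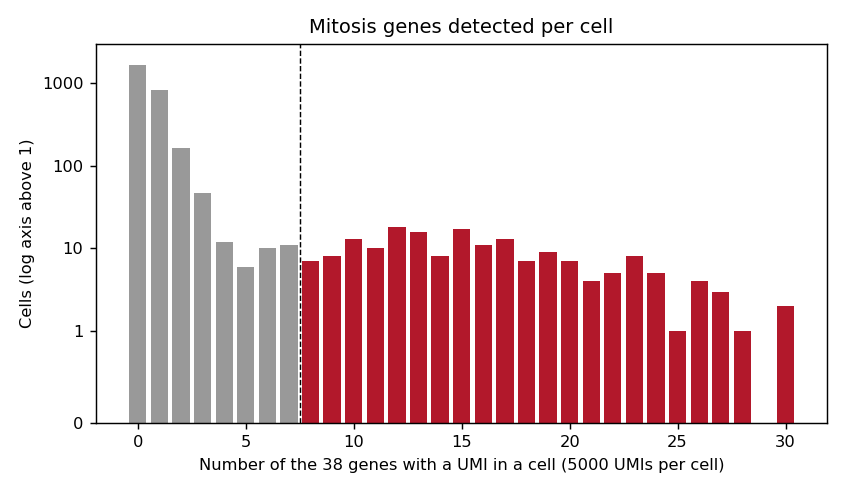
Number of cells (log axis above 1) against how many of 38 G2 and mitosis genes were detected in the cell, for 2928 cells thinned to 5000 UMIs. Cells with 0 to 3 genes are 92.6% of all, few cells have 4 to 7, and the 177 cells with 8 or more (red bars) reach up to 30.

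The share of mitosis-high cells showed no order over the inferred groups. It was 5.38%, 5.21%, 0%, 5.59% and 10.2% in the IFN-gamma plus TNF-like pairs, 5.52%, 8.57%, 6.67%, 5.6% and 8.55% in the TNF-like pairs, and 5.12%, 8.03%, 4.55%, 11.9% and 4.81% in the unstimulated-like pairs. The 0 was 0 of 49 cells in HTO3+HTO9, which allows a share of up to 6.12% by a limit of 3 cells and up to 7.25% by the exact interval. Summed over a group, 46 of 855 cells (5.38%, 3.97 to 7.11), 74 of 1181 (6.27%, 4.95 to 7.80) and 57 of 892 (6.39%, 4.88 to 8.2) were mitosis-high. These sums pool the cells of 5 pairs, their intervals cover counting error only, and no difference between groups was tested. The level of the 38 genes inside mitosis-high cells was 53.6, 60.6 and 68.0 UMIs per 10000 in the 3 groups, and 1.11, 1.30 and 1.29 in all other cells. In single pairs the mitosis-high cells overlapped widely, at 46.8 to 60.6, 43.3 to 72.5 and 42.7 to 91.1. The first range is from 4 pairs, as HTO3+HTO9 had no such cell. HTO3+HTO5 and HTO3+HTO7 had 3 such cells each and HTO4+HTO9 had 6.

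The 8 genes kept out of the count were also higher in mitosis-high cells, but by very different amounts. HMGB2 was 40.3-fold higher (32.3 to 50.7), and 72.2% of its UMIs lay in these cells. SMC4 was 10.2-fold, TMPO 9.33-fold and CKS2 8.95-fold higher. ANP32E was 3.85-fold and CKS1B 3.56-fold higher, and LBR (2.43-fold, 1.96 to 2.98) and BUB3 (2.21-fold, 1.85 to 2.63) were the least concentrated. For 6 of these 8 genes the lower bound of the ratio was at least 2, against 3.26% of all genes. The cells differed in depth before thinning, with median counts of 18718 UMIs in mitosis-high and 11699 in other cells, and 4278 and 3254 genes, and were alike in mitochondrial share (13.1% and 13%). The part of cell size or of droplets with more than 1 cell in this was not tested.

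The genes that set the count are given as a description. MKI67 was detected in 140 of the 177 mitosis-high cells, TOP2A in 146, TPX2 in 132 and CENPF in 118. The B cyclins were detected at this depth as follows: CCNB1 in 80 cells, CCNB2 in 49 and either in 95. CDK1 was detected in 59, CDC20 in 52, CCNA2 in 46 and PLK1 in 36. MKI67 was detected in 0.582% and TOP2A in 1.49% of the other cells. Free RNA could not be measured apart, because the sort held no other cell type. AURKB gave 72 UMIs in mitosis-high cells against 1 in the 2751 others, GTSE1 87 against 1, and SPC25 and CDCA2 46 and 28 against 0. ECT2 and TACC3 were the least concentrated of the 38, at 7.75-fold and 9.06-fold. Before thinning, MKI67 was seen in 6.68% of cells against 5.33% after, and CKS1B in 62.9% against 37.9%.

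**Figure D4:**
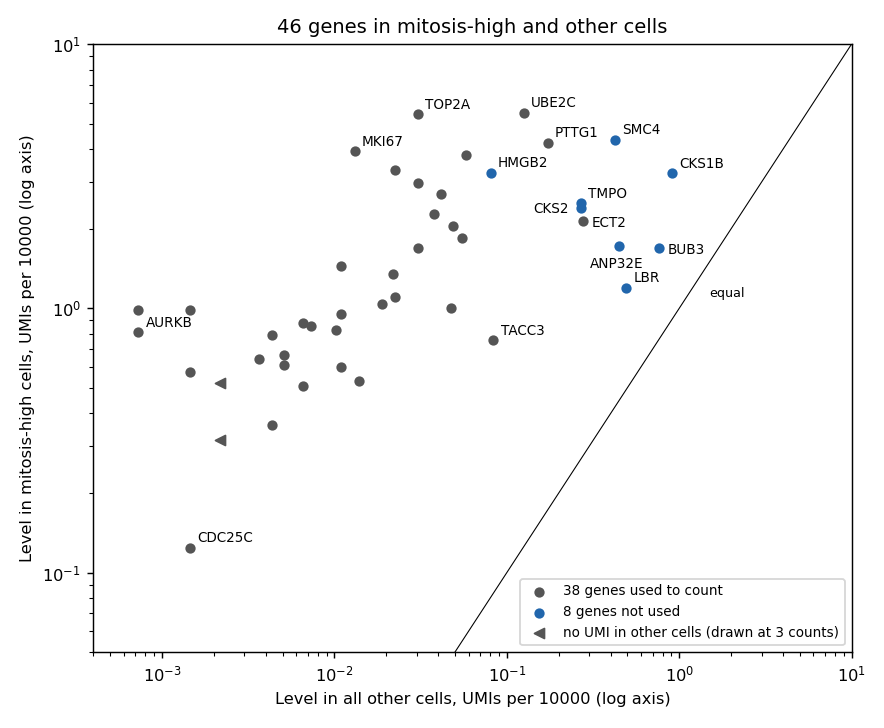
Level of each of the 46 genes in mitosis-high cells against all other cells (UMIs per 10000 after thinning, both axes log; 1 point per gene, the line marks equality). The 38 genes used for the count (grey) lie far from the line by construction, and of the 8 not used (blue), HMGB2 lies farthest from it (40.3-fold) and BUB3 closest (2.21-fold).

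The order of LBR over the inferred groups was kept, with slight overlap, in the cells that were not mitosis-high. Most thinned LBR UMIs (679, against 106 in mitosis-high cells) came from these other cells, so this is largely the same measurement and no separate support. In those cells LBR summed to 0.205 UMIs per 10000 (0.163 to 0.254) in the IFN-gamma plus TNF-like group, 0.466 (0.411 to 0.527) in the TNF-like group and 0.810 (0.726 to 0.901) in the unstimulated-like group. By pair, the ranges there were 0.163 to 0.245, 0.234 to 0.584 and 0.577 to 0.914, so neighbouring groups overlapped slightly. In mitosis-high cells LBR was at 0.609, 1.27 and 1.58, from 14, 47 and 45 UMIs. SMC4 summed to 0.265, 0.397 and 0.620 in other cells, but its pairs overlapped there across the 3 groups (0.0816 to 0.491, 0.238 to 0.5 and 0.302 to 0.716), and it was at 3.04, 4.70 and 4.95 in mitosis-high cells. The 8 genes together were at 2.53 to 3.02, 3.33 to 3.66 and 3.65 to 4.82 over the pairs in other cells, with the first group below the rest. 

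Mitosis-high cells were not uniform. A split by HIST1H1B, a replication-dependent linker histone gene, was chosen after its values were seen, so its ratios are descriptions. HIST1H1B was detected in 122 of the 177 mitosis-high cells and in 16 of the other cells (0.582%). A B cyclin was detected in 54 of the 122 (44.3%) and in 41 of the 55 without it (74.5%). S phase genes stood at 31.0 UMIs per 10000 with and 12.7 without HIST1H1B, and the 38 genes at 51.8 and 82.0. Of the 46 genes, 19 were higher without HIST1H1B by their counting interval. No share over all genes is given for this split, so the count cannot be set against a background. CDC20 led (4.79-fold, 3.09 to 7.59), followed by CCNB2 (4.44-fold), CCNB1 (3.16-fold), CENPA (3.04-fold), HMMR (2.94-fold), PTTG1 (2.87-fold), AURKA (2.73-fold) and PLK1 (2.52-fold). SPC25 alone was lower without it (ratio 0.333, 0.115 to 0.790). The other 26 intervals included 1, as for MKI67 (0.945, 0.744 to 1.19), CDK1 (0.665, 0.370 to 1.14) and CCNA2 (1.11, 0.593 to 2.00). Of the mitosis-high cells, 63.0% (47.5 to 76.8), 75.7% (64.3 to 84.9) and 64.9% (51.1 to 77.1) had HIST1H1B in the 3 inferred groups, with overlapping intervals.

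**Figure D5:**
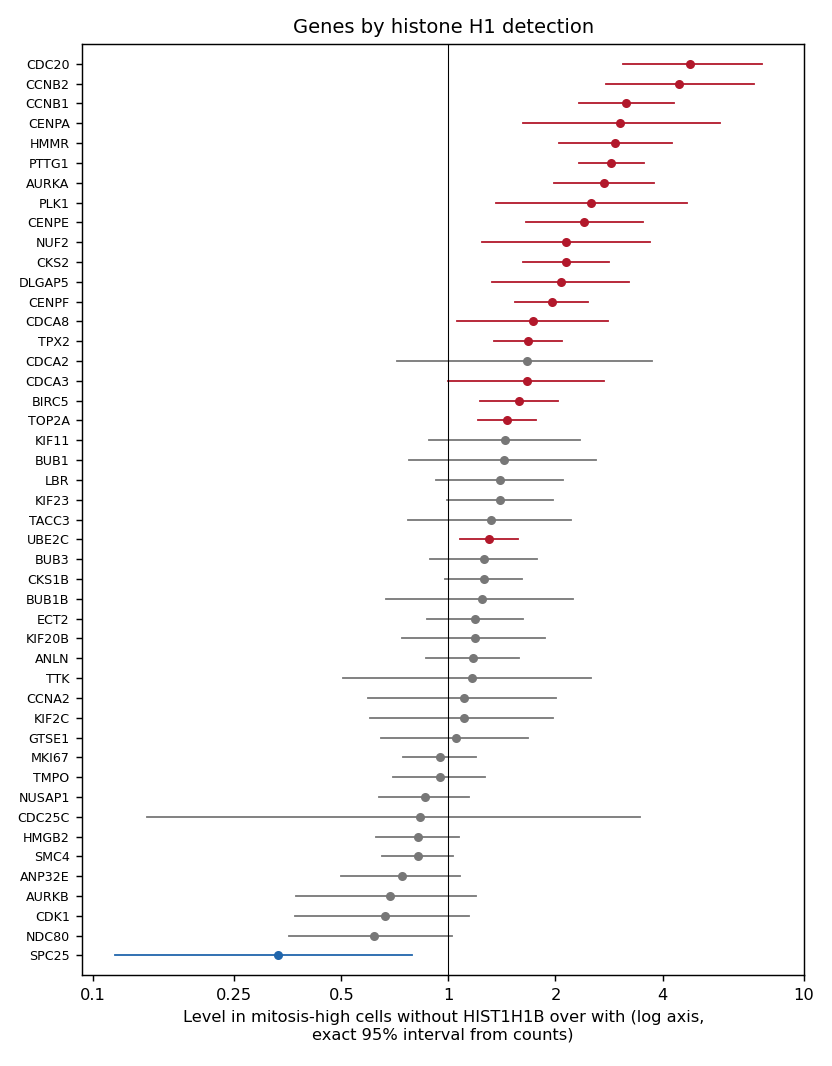
Ratio of the level in 55 mitosis-high cells without a HIST1H1B UMI to that in 122 with one, for each of the 46 genes (log axis, bars are exact 95% intervals from counts). CDC20 (4.79-fold) and the B cyclins lie at the top, MKI67 (0.945) near 1 and SPC25 (0.333) at the bottom.

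Other genes of the cell cycle were read from lists. The genes outside the 46 whose thinned counts followed the sum of the 38 most closely over 2928 cells were TK1 (Spearman's rho 0.383), HIST1H1B (0.382), PRC1 (0.381), TYMS (0.360), RRM2 (0.352), PCLAF (0.315), HIST1H1D (0.309), CDKN3 (0.291), HIST1H1E (0.289) and UBE2T (0.289). These cells share 1 library and 1 depth, and the counts are sparse. PRC1 and CDKN3 serve in mitosis, and most of the others make nucleotides, histones or replication factors. Of 33 other mitosis genes at or above the mean level, 33 were at least 2-fold higher in mitosis-high cells by the lower bound, as were 20 of 21 S phase genes. Of the regulators of G2 and mitosis, 3 of 9 were (FOXM1, MYBL2 and WEE1), and of G1 and arrest genes 3 of 11 (CCNE1, CDKN2D and GADD45A). Among all genes 3.26% were. Mitosis-high cells were picked by detected mitosis genes, so a high count among other mitosis genes was largely built in. The S phase list was 8.70-fold higher there (25.3 against 2.91) and the G1 and arrest list level (9.84 against 9.78). The IFN-gamma and TNF response lists were lower in mitosis-high cells, at 42.5 against 78.7 and 39.6 against 63.5.

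In the IFN-gamma plus TNF-like pairs the S phase list stood at 2.02 to 3.82, below both other groups. It stood at 4.02 to 7.31 in the TNF-like and 5.41 to 7.86 in the unstimulated-like pairs, which overlapped. Over all 15 pairs the summed level of the G2 and mitosis genes did not set the first group apart. Without the 4 pairs of fewest cells, and so with fewer pairs per group, it did. The first group then stood at 7.92 to 9.73, against 11.5 to 13.5 in the TNF-like and 14.0 to 18.1 in the unstimulated-like pairs. The contrast with the S phase list thus rests on small pairs. In HTO4+HTO9 that sum was 13.7, above every TNF-like pair, whereas the S phase level there was 3.82. In HTO3+HTO7 (71 cells) the sum was 8.90, below every TNF-like pair, whereas the S phase level was 5.41, inside the TNF-like range. Of the 21 S phase genes at or above the mean level, 12 were lower in all IFN-gamma plus TNF-like than in all unstimulated-like pairs. Among all genes 19.8% were. The 12 included MCM4 of the replicative helicase (0.161 to 0.277 against 0.529 to 0.720). GMNN, which blocks relicensing, was also below the TNF-like pairs. Of 33 other mitosis genes 4 were lower in that comparison (KIF22, CKAP5, G2E3 and KPNA2), a share below the 19.8% of all genes. Among the regulators WEE1, the kinase that restrains CDK1, was lower (0.0161 to 0.0534 against 0.0912 to 0.215), whereas the phosphatase CDC25B (0.771 to 1.04 against 0.419 to 0.522) and RB1 (0.524 to 0.882 against 0.320 to 0.510) were higher. CDKN1A, the p21 inhibitor of cyclin-dependent kinases, had all groups apart in rising order from the unstimulated-like (0.150 to 0.356) over the TNF-like (0.582 to 0.893) to the IFN-gamma plus TNF-like pairs (1.23 to 1.88). The share of all genes in this full order was not counted. Of all genes, 4.04% were higher in the TNF-like than in the unstimulated-like pairs. A further comparison, IFN-gamma plus TNF-like above TNF-like pairs, held for 5.70%. CDK4 was lower in the IFN-gamma plus TNF-like pairs (0.454 to 0.703) than in both other groups (0.756 to 0.899 and 0.760 to 1.01). CCND1 (cyclin D1) was lower in all IFN-gamma plus TNF-like (4.94 to 5.98) and all TNF-like pairs (4.71 to 6.53) than in all unstimulated-like pairs (6.91 to 8.49).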

How the data were processed

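One 10x Genomics 3' gene expression library and its hashtag library were measured on 1 pool of cells. The authors deposited unnormalised UMI counts, 1 for each barcode and each gene or hashtag. Per the file headers the table was written by Cell Ranger 5.0.1, while version 2.1.1 of Cell Ranger, with GRCh38, stands in the submitters' processing notes. This difference was not resolved. UMIs collapse PCR copies.

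Cells with at least 1000 genes and at most 20% mitochondrial counts were kept. A cell went to its top pair of hashtags when the weaker tag of the pair had 10 or more counts and 3 or more times those of any other tag. Pairs of at least 30 cells were used. This also leaves out droplets with further clear hashtags. No doublet caller was run, and doublets within a pair remain. The inferred groups were set from cytokine response genes of these data and are not labels. The members, role groups and other lists were chosen with earlier results of these data known. Since 1 pooled library gives no labelled replicates, no p-value was computed.

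Levels are summed UMI counts per 10000. Ratios carry exact intervals conditional on the summed counts, and the 4-fold rule read 0 counts as 3. UMIs of these genes clump in few cells, so intervals understate the spread between samples of cells. For counts of detected genes, cells were thinned at random to 5000 UMIs (seed 7). Comparisons over genes used those with a mean level over pairs of at least 0.05. Named genes were MKI67, TOP2A, CDK1, CCNB1, the highest member of each role group, members meeting the 4-fold rule or with groups that do not overlap, the 10 most similar genes outside the list, and genes of the other lists. CKS1B, CKS2, PTTG1, HMGB2 and ANP32E have close paralogs or pseudogenes, and the sources used here do not tell how shared reads were counted. The counting of spans, thinning and intervals was tested on simulated data. Python 3.11.15, numpy 2.4.6, scipy 1.17.1, pandas 2.3.3 and matplotlib 3.10.9 were used. Gene positions are from GENCODE 29 on GRCh38.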

Additional observations from a re-analysis of the deposited data

Results flagged for a closer look

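Among the 5 TNF-like pairs, the summed level of the 46 genes was 13.5 UMIs per 10000 in HTO2+HTO10, far from the next highest (11.7) relative to the range of the group (lowest 11). In all, 45 sets of 5 pairs were looked at in this way and 1 stood out, where chance flags about 1 in 20. Of the cells that passed the quality thresholds but had no clear hashtag pair, and so enter no comparison, 10.3% were mitosis-high (35 of 341, exact 95% interval 7.25 to 14.0), beside 6.05% (5.21 to 6.97) of cells with a pair. Their median depth was 12899 UMIs against 11510 in paired cells. The part of droplets with cells of several pairs in this share was not tested.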

How the results depend on the processing

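Across 15 settings that gave 210 values, 165 stayed within the spread of the pairs, the interval or 1.5 times the count, and 45 moved further. The 30 values from leaving out 1 pair stayed within that spread. The pooled level of the 46 genes (12 UMIs per 10000) was 12.2 with at least 2000 genes per cell, 12.5 and 11.6 with mitochondrial limits of 15% and 30%, 16.3 per 10000 UMIs outside mitochondrial and ribosomal protein genes, 9.30 as a mean over cells, 6.82 for the 38 genes and 12.2 without the 4 smallest pairs. Its span over pairs (3.79-fold) was 3.09 with 30% mitochondrial counts, 3.14 as a mean over cells, 6.61 for the 38 genes and 2.29 without the 4 smallest pairs. The number of members meeting the 4-fold rule (25) was 13 as a mean over cells (9.58% of all genes), 15 without the 4 smallest pairs (8.85%) and 14 at a mean level of at least 0.2 (8.53%). The 15 were not all from the 25. They took in CENPA, BUB1, BUB1B, KIF11 and KIF2C, and left out MKI67, TOP2A, CCNB1, UBE2C, TPX2 and SMC4, among others.

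Members lower in all IFN-gamma plus TNF-like than in all TNF-like pairs (4) became 0 among the 38 genes and 13 without the 4 smallest pairs (24.6% of all genes). Those lower than in all unstimulated-like pairs (3) became 5 and 8 with mitochondrial limits of 15% and 30% (15.9% and 20.3% of all genes), 5 outside mitochondrial and ribosomal protein genes (20.5%), 1 among the 38 genes and 31 without the 4 smallest pairs (36.8%). CDK1 was not among the 5 at the limit of 15%. Those lower in TNF-like than unstimulated-like pairs (1) became 2 with 30% mitochondrial counts (4.09%), 0 among the 38 genes and 7 without the 4 smallest pairs (9.41%). The cause of these moves was not tested, beyond the fewer genes or pairs counted.

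The mitosis-high share (6.05%) was 4.68% when thinned to 3000 and 7.08% when thinned to 8000 UMIs, and 7.38% and 4.75% for at least 4 and at least 12 genes detected. In TNF-like pairs its median was 4.44% at 3000 UMIs and 4.92% for at least 12 genes, below the unstimulated-like median there (4.67% and 5.12%). The IFN-gamma plus TNF-like median (5.38%), above the unstimulated-like one (5.12%) as reported, was below it in 8 of 10 settings, so the order of these medians is not stable. The median list levels of the IFN-gamma plus TNF-like, TNF-like and unstimulated-like pairs were 12.7, 15.8 and 20.0 per 10000 UMIs outside mitochondrial and ribosomal protein genes and 5.28, 6.61 and 8.23 for the 38 genes, and the last 2 were 9.30 and 10.2 as a mean over cells. Leaving out each pair in turn gave median list levels of 8.66 to 9.56, 11.6 to 11.7 and 14.3 to 14.9, and median mitosis-high shares of 5.29% to 5.49%, 6.13% to 7.61% and 4.97% to 6.57%. No paired analysis was possible because the hashtag pairs carry no replicate numbers and no test was made.

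Limits: the treatments of the pairs are inferred, the pairs share 1 library, the tumour of origin of each pair is not known, the smallest pairs hold 49 to 71 cells, and most members are near 1 UMI per cell or below even in mitosis-high cells. Shares of cells with a UMI therefore understate how many cells express a gene. Phase of the cell cycle was not called, and intervals cover counting error only.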
